A study of Mus musculus with 18 samples.

Results

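Immune cells of the small bowel lamina propria, the connective tissue under the gut epithelium, were compared between mice without St8sia6 (KO) and mice with 1 altered copy of it (het). The series is a droplet-based single-cell survey of small bowel epithelium, small bowel lamina propria and colon, with 18 samples in all, of which 6 are lamina propria (3 gene expression libraries and 3 hashtag libraries). Each of the 3 runs took cells from 1 St8sia6 KO mouse and 1 St8sia6 het mouse, with St8sia6 wild type (WT) cells from 2 mice as a further group. Cells went through a Percoll gradient and positive selection for CD45, were stained with a hashtag antibody per genotype, were combined by organ and were captured with 10x 5′ chemistry. The labels name the gene that was altered, without the deleted part, the background strain, the sex or the age, and no agent was given. Immune cells were taken as cells with at least 1 molecule of Ptprc (the gene of CD45), 0 of Epcam, under 20% mitochondrial counts and at least 1000 molecules (unique molecular identifiers, UMI). The rule kept 5230 of 13616 KO and het cells, among 7478 lamina propria immune cells of all genotypes, 21600 cells in the lamina propria matrix and 60272 cells in the series. They were 3178 KO cells (859, 1024 and 1295 by library) and 2052 het cells (772, 699 and 581).

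ST8SIA6 is a sialyltransferase of the Golgi that links a sialic acid to another sialic acid at the tip of a glycan. Such glycans on a cell surface are ligands of Siglecs, receptors of the immunoglobulin superfamily, most of which dampen the activity of the leukocyte that bears them. In the lamina propria, IgA plasma cells secrete antibody that is carried into the gut lumen, and CD4 T cells of the Th17 type release IL-17A, IL-17F and IL-22, which act on epithelium and recruit neutrophils. Regulatory T cells that express FOXP3 restrain these responses, and CD8 T cells and other cytotoxic lymphocytes carry granzymes and perforin.

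The series title concerns gut inflammation and Th1 and Th17 programs, which the comparison of KO with het addresses in cells captured together. The 5230 cells were divided by a marker of T cells (Cd3e) and a marker of plasma cells (Mzb1). T cells (Cd3e without Mzb1) numbered 532 in KO and 407 in het, plasma cells (Mzb1 without Cd3e) 1330 and 783, other cells (neither) 1038 and 631, and cells with both markers 278 and 231. Counts were summed by genotype, library and class, so that each group had n = 3 sums. These held 231230 to 712140 molecules in T cells, 2344682 to 4601370 in plasma cells, 375816 to 1054697 in other cells and 3578141 to 7210246 over all classes. Cd3d was found in 71.05% of KO and 66.58% of het T cells, against 9.54% and 8.72% of other cells. Sdc1, which encodes the plasma cell surface protein CD138, was found in 62.56% of KO and 61.69% of het plasma cells, against 5.08% and 5.16% of T cells. Igha, the IgA heavy chain gene, was found in 100% of KO and 99.26% of het T cells, so a molecule of an abundant plasma cell gene does not place a cell in a class. No doublet caller was run. The cells with both markers held a median of 4877.5 to 9816 molecules per KO library and 8646 to 10697.5 per het library, against 2624 to 2741.5 and 2191 to 2664 in T cells, and were kept apart. Genotype rests on the barcode endings of the deposited matrix, where the genotype's own hashtag led in at least 99.04% of the cells of every KO ending and in 100% of the cells of every het ending. It led in 55.69% of all cells in the WT ending of library 3, which may hold cells of another genotype. Among the immune cells of that ending it led in 46 of 46 T cells, 253 of 272 plasma cells and 106 of 131 other cells. WT values of library 3 (the last of each WT triple) are given as labelled. No cell barcode was shared between genotypes of the same library, and 190 were shared over the 27 pairs of endings from different libraries.

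St8sia6 RNA was still counted in KO cells, and its level was lower in KO than in het plasma cells. Values are CPM (molecules relative to the sum of the library, TMM-scaled). In plasma cells the gene (ENSMUSG00000003418.11, chromosome 2, 13651018 to 13794734, GRCm38.p6) stood at 31.9, 47.0 and 48.0 CPM in the KO sums, against 55.0, 62.6 and 65.1 CPM in the het sums. All KO plasma cell sums lay below all het sums, and the WT sums stood at 61.0, 70.0 and 81.1 CPM. The mean was 42.3 ± 8.98 CPM in KO and 60.9 ± 5.29 CPM in het (SD, n = 3 each), a log2 ratio of -0.54 (standard error 0.11), with an unadjusted p of 0.00119 and an adjusted p of 0.9999 over the 10077 genes tested (edgeR quasi-likelihood test, Benjamini-Hochberg adjustment). The sums held 101, 196 and 223 molecules of St8sia6 in KO plasma cells and 130, 149 and 154 in het plasma cells. In T cells St8sia6 stood at 27.6, 13.0 and 41.9 CPM in KO and 11.5, 7.16 and 8.96 CPM in het, where all KO sums lay above all het sums. Those T cell values rest on 11, 7 and 28 molecules in KO and 7, 3 and 2 in het, and the log2 ratio of 1.47 (standard error 0.52) had an adjusted p of 0.604. In other cells the groups overlapped, with 39.2, 62.1 and 15.5 CPM in KO and 31.7, 20.8 and 40.2 CPM in het (log2 ratio 0.38, adjusted p 0.964). An edgeR test of whether the ratio differed between T, plasma and other cells called 8 of 9186 genes (0.0871%), and for St8sia6 gave an adjusted p of 0.99998 (unadjusted 0.0413). The files do not show which part of the gene was deleted, so a 5′ tag of St8sia6 checks the labels only in so far as it reads deleted sequence.

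**Figure D1:**
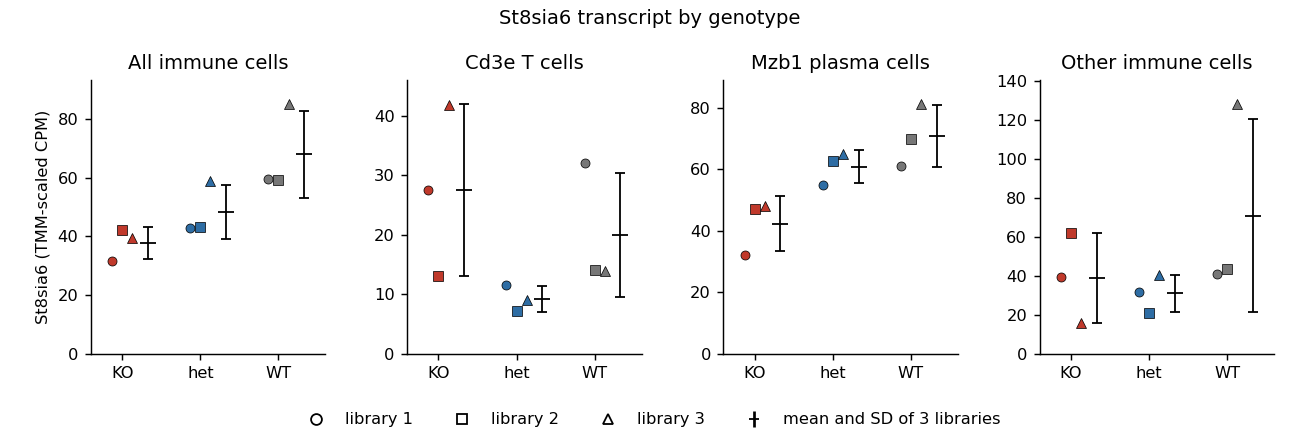
St8sia6 level (CPM, TMM-scaled, linear axis) in all immune cells, T cells, plasma cells and other cells, with 1 point per library for KO, het and WT and the mean with SD. In plasma cells the 3 KO points (31.9 to 48.0 CPM) lie under the 3 het points (55.0 to 65.1 CPM).

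The makeup of the immune cells was compared as shares of cells, with two-sided exact permutation tests over 3 KO and 3 het sums, which cannot give a p below 0.1. T cells made up 14.4, 16.0 and 18.8% of KO immune cells and 24.7, 18.5 and 15.0% of het immune cells, plasma cells 39.9, 42.3 and 42.8% in KO and 33.5, 37.1 and 45.6% in het. These groups overlapped, and the means of 16.4 ± 2.23% in KO and 19.4 ± 4.95% in het for T cells, and of 41.7 ± 1.52% and 38.7 ± 6.2% for plasma cells (SD, n = 3 each), gave an exact permutation p of 0.5 each. Among cells whose own hashtag held at least 80% of the hashtag molecules, both differences turned direction, with KO minus het at 4.59 points for T cells and -6.62 points for plasma cells. That cut fell unequally on the genotypes. It kept 88, 90 and 211 of 124, 164 and 244 KO T cells and all het T cells (191, 129 and 87). Of 343, 433 and 554 KO plasma cells it kept 137, 96 and 283, and of 259, 259 and 265 het plasma cells 258, 240 and 265. Within T cells the groups stood apart. Cells with Cd4, which encodes the coreceptor of helper and regulatory T cells, and without Cd8a made up 22.6, 26.2 and 26.2% of KO T cells (25.01 ± 2.10%, SD, n = 3), against 14.1, 15.5 and 13.8% of het T cells (14.5 ± 0.905%). Cells with Cd8a, which encodes the coreceptor of cytotoxic T cells, and without Cd4 made up 18.5, 22.6 and 29.1% of KO T cells (23.4 ± 5.33%), against 37.7, 32.6 and 39.1% of het T cells (36.4 ± 3.44%). Neither share overlapped between KO and het, while the WT shares spread from 6.25 to 29.3% for Cd4 and from 20.8 to 30.4% for Cd8a. In the comparison of KO and het each share had an exact permutation p of 0.1, the smallest possible, which became 0.45 after Benjamini-Hochberg adjustment over the 9 shares compared.

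To compare T cells at equal depth, each was also thinned to 1000 molecules. The share with Cd8a was then 12.1, 13.4 and 13.5% in KO and 25.7, 17.8 and 26.4% in het, still without overlap. The share with Cd4 was 14.5, 9.76 and 14.3% in KO and 9.42, 7.75 and 12.6% in het, which overlapped. Before thinning, Cd8b1, the gene of the CD8 beta chain, was found in 12.1, 15.2 and 21.3% of KO T cells. In het T cells it was found in 20.9, 12.4 and 27.6%, so Cd8b1 overlapped between the groups. Also before thinning, any Cd4 was found in 26.7% of KO and 18.2% of het T cells, and any Cd8a in 25.9% and 40.0%. Among B cells, gated by Cd79a, which should lack both genes and held a median of 1724 to 1812.5 molecules per KO library and 1717.5 to 2158 per het library, Cd4 was found in 2.93% of KO and 2.78% of het cells and Cd8a in 0.798% and 1.39%. The other shares overlapped between groups, except that myeloid cells did not at the 80% hashtag share given above, with 20.0, 17.0 and 21.0% of other cells in KO and 14.1, 9.57 and 9.70% in het. That cut kept 21, 16 and 54 of 32, 36 and 61 KO myeloid cells and all het myeloid cells (32, 22 and 16). The B cells gated by Cd79a made up 44.5, 31.6 and 33.9% of other cells in KO and 27.2, 38.2 and 38.2% in het. Myeloid cells (at least 2 molecules of 8 macrophage and dendritic cell genes, no Cd79a) made up 10.6, 10.5 and 15.4% in KO and 14.0, 9.24 and 9.70% in het. The cells with Il7r among the rest, a receptor gene of innate lymphoid cells and T cells, made up 27.2, 34.8 and 31.4% in KO and 38.2, 34.5 and 27.9% in het. Il7r was also found in 52.44% of KO and 45.21% of het T cells. Without cells holding Cd3d, Cd3g, Trac, Trbc1 or Trbc2, Il7r cells went from 82, 119 and 124 to 32, 35 and 45 in KO. In het they went from 87, 82 and 46 to 35, 28 and 12.

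**Figure D2:**
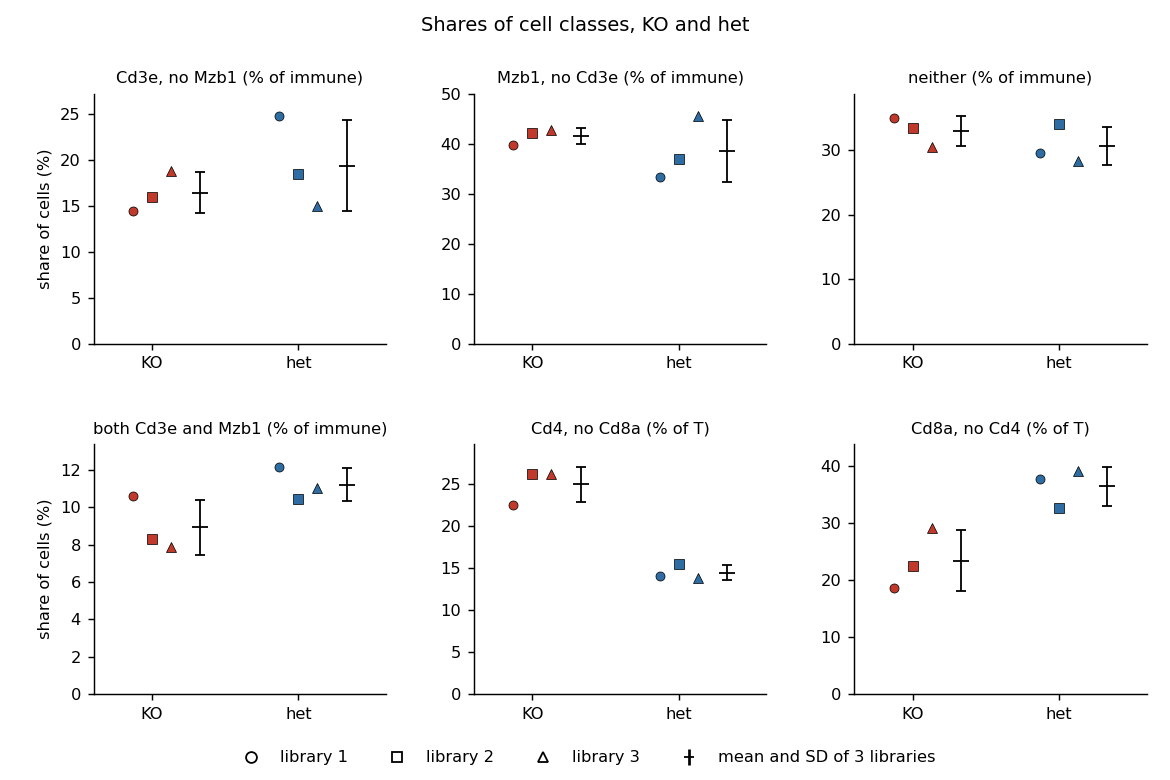
Share of cells (percent, linear axis) for T, plasma, other and double-marker cells among immune cells, and for Cd4 and Cd8a cells among T cells, with 1 point per library for KO and het and the mean with SD. The Cd4 share (KO 22.6 to 26.2%, het 13.8 to 15.5%) and the Cd8a share (KO 18.5 to 29.1%, het 32.6 to 39.1%) do not overlap between the groups.

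In T cells Il17f (ENSMUSG00000041872.9, chromosome 1, 20777146 to 20785274), which encodes the Th17 cytokine IL-17F, rose in KO and was the only gene called among 6278 tested (0.0159%, edgeR quasi-likelihood test, Benjamini-Hochberg adjusted p under 0.05). Il17f stood at 156, 181 and 126 CPM in the KO sums, against 11.5, 16.7 and 0 CPM in the het sums. Every KO sum lay above every het sum, and the WT sums stood at 0, 14.0 and 0 CPM. The mean was 154 ± 27.5 CPM in KO and 9.40 ± 8.55 CPM in het (SD, n = 3 each), a log2 ratio of 3.83 (standard error 0.38) with an adjusted p of 1.2e-04. Il17a, the neighbouring gene for IL-17A, stood at 1087, 1847 and 605 CPM in KO and 577, 234 and 224 CPM in het. The KO Il17a sums all lay above the het sums, but the log2 ratio of 1.68 (standard error 0.42) did not pass the test (adjusted p 0.272), and Il17a stood at 184 and 501 CPM in WT libraries 1 and 2 and at 891 CPM in WT library 3. Without library 3 there were 7 calls in T cells, with Il17f among them. In a summed count, more cells of a type cannot be told apart from more RNA per cell.

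Il17a and Il17f lie on opposite strands of chromosome 1, and the 250 bases before a RefSeq start of each are shown, for the gene that was called and for its neighbour. The Il17f window lies inside the gene coordinates given above, which reach further on that side than this start. The core AGGTCA, shared by elements that many nuclear receptors recognise, among them the product of Rora, was searched. The sequences are from RefSeq (GRCm38.p6), 5′ to 3′ on the strand of the gene, with the core or its reverse complement TGACCT in capitals. The first is chr1:20730655-20730904 (plus strand) and the second chr1:20784271-20784520 (minus strand).
Il17a: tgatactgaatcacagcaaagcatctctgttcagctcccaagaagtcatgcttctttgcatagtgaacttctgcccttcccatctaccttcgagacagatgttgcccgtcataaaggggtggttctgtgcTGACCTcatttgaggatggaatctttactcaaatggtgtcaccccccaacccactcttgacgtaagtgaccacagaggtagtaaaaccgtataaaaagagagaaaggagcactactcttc
Il17f: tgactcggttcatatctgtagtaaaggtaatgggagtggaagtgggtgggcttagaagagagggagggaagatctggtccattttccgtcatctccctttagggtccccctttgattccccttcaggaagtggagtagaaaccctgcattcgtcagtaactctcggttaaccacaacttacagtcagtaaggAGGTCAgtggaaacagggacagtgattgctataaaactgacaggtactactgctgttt
Each window holds 1 match, which starts at position -120 for Il17a and -58 for Il17f counted from that start. A match on either strand was present in 4607 of 32851 promoters of this length (14%), so its presence in both is a description of these letters and not a binding site.

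The Il17f molecules came from few cells. Il17f was found in 7 of 124, 10 of 164 and 7 of 244 KO T cells by library, against 4 of 191, 2 of 129 and 0 of 87 het T cells, where 0 of 87 allows a share of up to 3.45%. Over the libraries this was 24 of 532 KO T cells (4.51%) and 6 of 407 het T cells (1.47%), and after thinning to 1000 molecules per cell 4.03, 3.05 and 2.05% in KO and 1.05, 0.775 and 0% in het. B cells held Il17f in 1 of 376 cells in KO and 0 of 216 in het (a share of up to 1.39%). The sums held 62, 97 and 84 Il17f molecules in KO T cells and 7, 7 and 0 in het T cells. The cell with the most Il17f in each KO library held 21, 29 and 32 of these molecules, and in the het libraries with any, 4 and 6. Il17a was found in 15, 32 and 24 KO T cells and 15, 9 and 8 het T cells. Of these Il17a cells, 40.0, 31.3 and 29.2% in KO and 26.7, 22.2 and 0% in het also held Il17f. In WT it was 0 of 3, 2 of 5 (40.0%) and 0 of 7 Il17a cells. For every 100 Il17a molecules there were 14.3, 9.78 and 20.8 Il17f molecules in KO and 1.99, 7.14 and 0 in het. This ratio did not overlap, but it rests on the same Il17f molecules as the call and adds no separate evidence. All limits and intervals from a count of 0 cover counting error only.

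The difference in Il17f was found in the T cell class as gated. Cells that held both Cd3e and Mzb1 had 3, 25 and 13 Il17f molecules in KO and 42, 13 and 4 in het, and with them added to the T cells the log2 ratio of Il17f was 1.82 with an adjusted p of 0.959. Among T cells with Cd4 and without Cd8a alone it was 3.04 with an adjusted p of 0.667. In the sums over all immune cells, Il17f counted 107, 163 and 106 molecules in KO and 67, 26 and 4 in het, a log2 ratio of 1.59 (adjusted p 0.983). The edgeR test of a difference in the Il17f ratio between T, plasma and other cells gave an adjusted p of 0.99998 (unadjusted 0.136).

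Other Th17 genes leaned the same way without passing the test. Of 15 tested members among 20 Th17 genes, Il17f included, 14 had a ratio above 0 and 6 had all KO sums above all het sums (6.15% of all tested genes did), with a median log2 ratio of 0.53 against 0.00 over all genes (-0.000139). Il23r, the receptor gene for the cytokine IL-23 that maintains Th17 cells, stood at 148, 201 and 105 CPM in KO and 65.7, 88.3 and 53.7 CPM in het (log2 ratio 1.12, standard error 0.20, adjusted p 0.0966), with 64.1, 98.03 and 55.7 CPM in WT. Maf, a transcription factor of IL-10-producing and Th17 cells, stood at 359, 404 and 349 CPM in KO and 228, 162 and 206 CPM in het (log2 ratio 0.89, adjusted p 0.177). For Il23r and Maf the KO sums all lay above the het sums. Il22, the gene of the epithelial repair cytokine IL-22, overlapped between groups at 231, 663 and 314 CPM in KO and 306, 561 and 17.9 CPM in het (log2 ratio 0.41, adjusted p 0.968). Rora, a nuclear receptor gene of Th17 cells and innate lymphoid cells, had a log2 ratio of 0.37 (adjusted p 0.741), and Irf4, a factor of activated T cells, 0.66 (adjusted p 0.604), while Ccr6 held too few molecules to be tested.

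Regulatory T cell genes showed the same lean in the T cell class as gated. Of 12 tested members among 15, 11 had a ratio above 0 and 8 had all KO sums above all het sums (6.15% of all tested genes did), with a median log2 ratio of 0.60 against 0.00 over all genes (-0.000139). Foxp3, the factor that defines regulatory T cells, stood at 62.7, 65.2 and 34.4 CPM in KO and 8.22, 16.7 and 8.96 CPM in het. That is 25, 35 and 23 Foxp3 molecules in KO and 5, 7 and 2 in het, without overlap in CPM, and the log2 ratio of 2.21 (standard error 0.48) had an adjusted p of 0.177. Foxp3 stood at 8.01 and 28.0 CPM in WT libraries 1 and 2 and at 62.6 CPM in WT library 3. Il10, which encodes an anti-inflammatory cytokine, stood at 103, 127 and 41.9 CPM in KO and 49.3, 28.6 and 4.48 CPM in het, which overlapped (log2 ratio 1.58, adjusted p 0.177). Ctla4, an inhibitory receptor gene, stood at 733, 722 and 873 CPM in KO and 542, 668 and 560 CPM in het (log2 ratio 0.38, adjusted p 0.668). Areg, the gene of the tissue repair factor amphiregulin, had 512, 404 and 269 CPM in KO and 164, 205 and 130 CPM in het, again without overlap (log2 ratio 1.22, standard error 0.23, adjusted p 0.0986). Gata3, a factor of Th2 cells, innate lymphoid cells and gut regulatory T cells, stood at 80.3, 83.8 and 94.3 CPM in KO and 46.0, 43.0 and 22.4 CPM in het (log2 ratio 1.07, adjusted p 0.314). Over the libraries, Foxp3 was found in 6.58% of KO and 2.21% of het T cells. In cells with both Cd3e and Mzb1 it was found in 5.8% of KO and 6.9% of het cells. In those cells Il10 was found in 9.7% and 10.4%, Il23r in 20.1% and 20.3% and Il17a in 15.8% and 15.6%. Maf was found in 45.0% and 43.7% of them and Areg in 20.5% and 17.7%.

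Markers of innate lymphoid cells moved with these lists. Their summed level (Il7r, Rora, Gata3, Ncr1, Id2) ranged over 1569 to 1984 raw CPM in KO T cells and 1379.6 to 1493 raw CPM in het T cells, and all 11 tested members of a list of 19 innate lymphoid genes had a ratio above 0 (median 0.37). That list shares Il22, Il23r and Rora with the Th17 list and Gata3 and Il1rl1 with the regulatory list. By cells, Il7r was found in 52.44% of KO and 45.21% of het T cells, Rora in 66.92% and 64.62% and Gata3 in 12.03% and 8.6%. Id2 was found in 51.69% and 51.35%, and Ncr1 in 0.19% and 0.74%, the other direction. The part of innate lymphoid cells, and of the higher share of Cd4 cells given above, in the Th17 and regulatory values was not tested.

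Genes of cytotoxic T cells leaned the other way in KO, also without a call. Of 13 tested members among 18 cytotoxic genes, 1 had a ratio above 0 and 2 had all KO sums below all het sums (5.65% of all tested genes did), with a median log2 ratio of -0.43. Ccl5, a chemokine gene of effector CD8 T cells, stood at 6888, 4047 and 6325 CPM in KO and 9241, 9347 and 8149 CPM in het. Its mean was 5753 ± 1504 CPM in KO and 8913 ± 663 CPM in het (SD, n = 3 each), a log2 ratio of -0.65 (standard error 0.13, adjusted p 0.157), and the WT sums stood at 5755, 5784 and 5143 CPM. Cd8a stood at 171, 166 and 248 CPM in KO and 345, 263 and 358 CPM in het, without overlap (log2 ratio -0.73, standard error 0.16, adjusted p 0.177), with 200, 207 and 230 CPM in WT. Nkg7, a cytotoxic granule gene, stood at 778, 644 and 587 CPM in KO and 1011, 890 and 931 CPM in het (log2 ratio -0.50, adjusted p 0.198). Ccl4, another chemokine gene of effector cells, stood at 642, 491 and 451 CPM in KO and 825, 1077 and 1048 CPM in het (log2 ratio -0.89, adjusted p 0.218). Gzma, which encodes granzyme A, overlapped at 5523, 3492 and 3188 CPM in KO and 5803, 4652 and 5655 CPM in het (log2 ratio -0.41, adjusted p 0.849), and Gzmb had a log2 ratio of -0.30 (adjusted p 0.943).

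Within T cells with Cd8a and without Cd4, the log2 ratios were -0.20 for Ccl5, -0.19 for Nkg7 and -0.20 for Gzma, and 1 of 8 tested cytotoxic genes had a ratio above 0 (median -0.19). Within T cells with Cd4 and without Cd8a the direction turned, as all 5 tested cytotoxic genes had a ratio above 0 (median 0.72), Gzma at 0.72 and Gzmb at 1.62. The part of the shares of Cd4 and Cd8a cells in the cytotoxic values of all T cells was not tested. No gene was called among 2018 tested in these cells (0%, 55 at an unadjusted p under 0.05), and none among 2686 in the Cd4 cells (0%, 105 at an unadjusted p under 0.05). In the Cd4 cells Il17a had a log2 ratio of 1.07 and Foxp3 of 2.00.

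Th1 genes did not share a direction. Of 19 tested members among 20, 7 had a ratio above 0, 4 had all KO sums above (6.15% of all tested genes did) and 6 had all KO sums below the het sums (5.65% did), with a median log2 ratio of -0.21. Ifng, the gene of the Th1 cytokine interferon-gamma, stood at 35.1, 123 and 58.4 CPM in KO and 82.2, 88.3 and 76.1 CPM in het, with the lowest and the highest value both in KO (log2 ratio -0.27, standard error 0.28, adjusted p 0.963). Tbx21, which encodes the Th1 factor T-bet, had a log2 ratio of -0.40 (adjusted p 0.921), Tnf of -0.50 (adjusted p 0.947) and Cxcr3, a chemokine receptor gene of Th1 cells, of -0.68 (adjusted p 0.895). Cell cycle genes had a ratio above 0 in 13 of 14 tested members in T cells, with a median of 0.40. This was not particular to T cells, with 16 of 20 in plasma cells (median 0.375) and 11 of 12 in other cells (median 0.51).

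**Figure D3:**
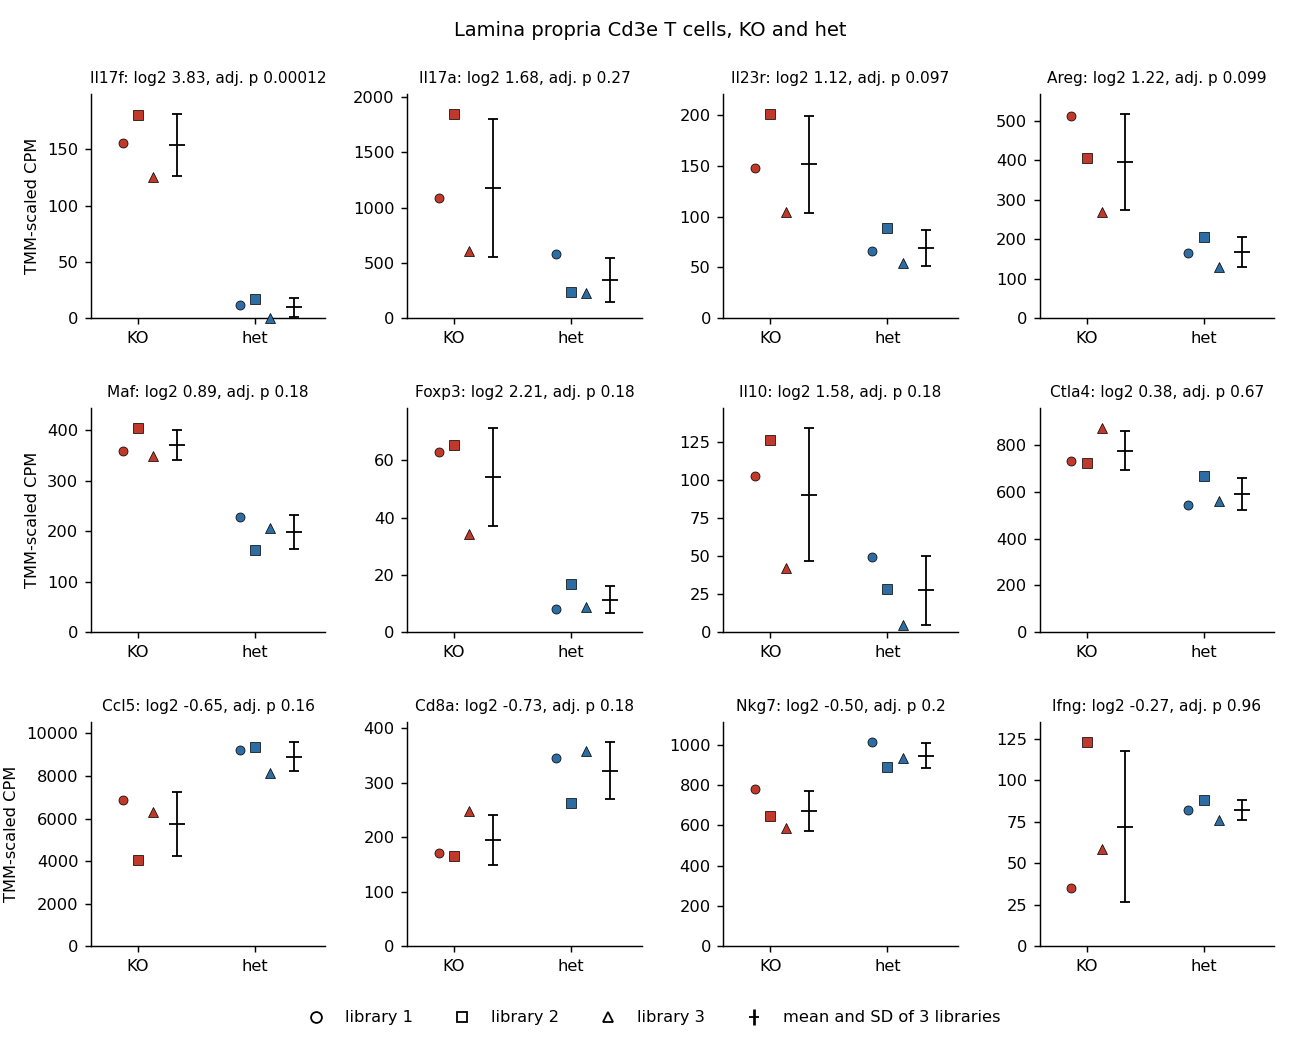
Level (CPM, TMM-scaled, linear axis from 0, a scale for each panel) of 12 genes in T cells, with 1 point per library for KO and het and the mean with SD. Il17f passed the test (KO 126 to 181 CPM, het 0 to 16.7 CPM), and the other panels show genes that did not, among them Foxp3 (KO 34.4 to 65.2 CPM) and Ccl5 (KO 4047 to 6888 CPM).

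Plasma cells, the deepest class, gave no call among 10077 genes (0%, edgeR quasi-likelihood test), with 354 genes at an unadjusted p under 0.05 and 11 calls by DESeq2. Some abundant genes of antibody secretion stood close together in KO and het. Jchain, the gene of the chain that joins IgA monomers, averaged 46180 ± 627 CPM in KO and 45872 ± 1742 CPM in het (log2 ratio 0.01). Igha averaged 160471 ± 14173 CPM in KO and 167866 ± 1269 CPM in het (log2 ratio -0.07). Xbp1, a transcription factor of the secretory programme, averaged 748 ± 21.2 CPM in KO and 747 ± 39.1 CPM in het (SD, n = 3 each, log2 ratio 0.00, standard error 0.17). The standard error of Xbp1 limits how small a difference these sums can show. Hspa5, the gene of the endoplasmic reticulum chaperone BiP, averaged 1329 ± 39.9 CPM in KO and 1568 ± 327 CPM in het (log2 ratio -0.23). Of a list of 12 immunoglobulin constant genes 11 were tested, and 4 had a ratio above 0. Their log2 ratios ran from -2.66 to 0.663 (median -0.05), without a call.

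Of the 28 secretory and unfolded protein response genes, all tested, 6 had a ratio above 0, with a median log2 ratio of -0.09 against -0.01 over all genes (-0.00868). Of 18 plasma cell identity genes 12 had a ratio above 0 (median 0.03), with 2 whose KO sums all lay above the het sums (3.6% of all tested genes did). Tnfrsf17, which encodes the survival receptor BCMA, was at 110, 94.7 and 102 CPM in KO and 84.1, 85.7 and 93.0 CPM in het (log2 ratio 0.22, standard error 0.14). Oxidative phosphorylation genes had a ratio above 0 in 30 of 32 members with a median of 0.08. Of 20 sialyltransferase genes 13 were tested, 6 had a ratio above 0, and St8sia6 was the member whose KO sums all lay below the het sums (4.9% of all tested genes did). The median of that list was -0.03, and of 9 Siglec genes 4 were tested in plasma cells and 0 in T cells.

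Of the plasma cell genes with the lowest p-values, Gm4316, a predicted gene on chromosome 8, stood at 15.5, 24.7 and 24.5 CPM in KO and 7.19, 5.46 and 4.23 CPM in het (log2 ratio 1.93, standard error 0.27, adjusted p 0.56). Selp, which encodes P-selectin of endothelial cells and platelets, stood at 96.2, 52.3 and 36.1 CPM in KO plasma cells and 33.8, 10.5 and 9.30 CPM in het plasma cells (log2 ratio 1.84). No variable, diversity or joining gene of immunoglobulins or T cell receptors was called among 191 tested. Ighv1-47 came nearest, at 413, 108 and 165 CPM in KO and 1.69, 3.78 and 3.80 CPM in het (log2 ratio 5.98, adjusted p 0.0707).

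Other cells, gated only by the lack of Cd3e and Mzb1, had 17 calls among 8369 genes (0.203%), and all 17 genes rose in KO. These cells held B cells, myeloid cells and cells with Il7r, and T cells without a Cd3e molecule may be among them. Trbc1 was found in 21.39% of KO and 21.24% of het other cells and Trbc2 in 18.11% and 19.49%. Leaving out library 1, 2 or 3 gave 58, 2 and 10 calls, and a fit without the library block gave 0. Of the fixed list of 13 stromal and endothelial genes, 6 were tested, 5 had a ratio above 0, 1 was called (Tagln) and 0 had all KO sums above all het sums (median log2 ratio 1.08 against 0.00 over all genes, 0.00262). Selp, the P-selectin gene, stood at 292, 309 and 154 CPM in KO and 31.7, 0 and 0 CPM in het (log2 ratio 4.73, standard error 0.69, adjusted p 0.0123). Ackr1, a chemokine-binding receptor gene of venules, stood at 70.8, 74.7 and 20.4 CPM in KO and 5.29, 0 and 0 CPM in het (log2 ratio 4.94, adjusted p 0.00844). Madcam1, the vessel ligand for gut-homing lymphocytes, stood at 98.7, 90.5 and 58.2 CPM in KO and 15.9, 0 and 0 CPM in het (log2 ratio 4.02, adjusted p 0.0138). For these 3 genes the het molecules came from library 1 alone. Apold1, an endothelial early response gene, stood at 41.7, 68.4 and 27.2 CPM in KO and 1.76, 0 and 2.68 CPM in het (log2 ratio 5.13, adjusted p 0.00855). Cebpd, a transcription factor of acute inflammation found in many cell types, stood at 181, 137 and 90.2 CPM in KO and 22.9, 14.9 and 10.7 CPM in het (log2 ratio 3.12, standard error 0.38, adjusted p 0.00844).

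The remaining called genes in other cells had log2 ratios from 1.48 to 5.23. Rnd1 (3.73), Zfp46 (3.59), Slco2a1 (3.34), a prostaglandin transporter gene, Tm4sf1 (3.26) and Adamts9 (3.24), which encodes a matrix protease, had KO sums that all lay above the het sums. The same held for Atp8b1 (2.75), Ier3 (2.15), Gm42031 (1.94), Mctp1 (1.63), Pakap.1 (1.48) and Gadd45g (1.48), a stress response gene. Tagln, a smooth muscle gene, had the highest ratio (5.23, adjusted p 0.0454) but was at 6.33, 148 and 206 CPM in KO and 7.05, 0 and 0 CPM in het, so KO library 1 lay among the het values.

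Some other cells held endothelial molecules. At least 3 molecules of 8 endothelial genes were held by 6 of 301, 11 of 342 and 5 of 395 KO cells, against 3 of 228, 2 of 238 and 0 of 165 het cells (where 0 of 165 allows a share of up to 1.82%). That is 22 of 1038 KO cells (2.12%) and 5 of 631 het cells (0.792%), with 4, 4 and 0 such cells in WT, and by library 1.99, 3.22 and 1.27% in KO overlapped with 1.32, 0.840 and 0% in het. These cells held a median of 9150 molecules in KO and 6414 in het, against 2122 and 2166 over all other cells. Over the whole lamina propria matrix, cells with at least 3 endothelial molecules were 3.17% of KO and 2.35% of het cells. The summed level of the fibroblast and endothelial markers overlapped in other cells, at 201 to 382 raw CPM in KO and 169 to 435 raw CPM in het. Pecam1, an adhesion gene on that list, had a log2 ratio of -0.03. It was found in 27.07% of KO and 25.99% of het other cells and in 30.9% and 31.29% of plasma cells, so it does not mark endothelium alone here. Over the libraries Cdh5 was found in 1.83% of KO and 0.63% of het other cells. Col3a1 was found in 0.87% and 0.48%, Col1a1 in 0.58% and 0.48% and Dcn in 0.67% and 0.63%. Left out were the 59 KO and 23 het cells with any molecule of 15 endothelial, muscle or fibroblast genes, a set chosen after the calls were seen. Then 1 gene was called, Gm42031 (log2 ratio 2.08, adjusted p 0.0130), and 6 of the 17 genes still held enough molecules to be tested. Among these, the log2 ratio was 0.94 for Cebpd (adjusted p 0.998), 0.46 for Ier3, 0.42 for Pakap.1, 0.28 for Gadd45g and 0.01 for Mctp1.

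**Figure D4:**
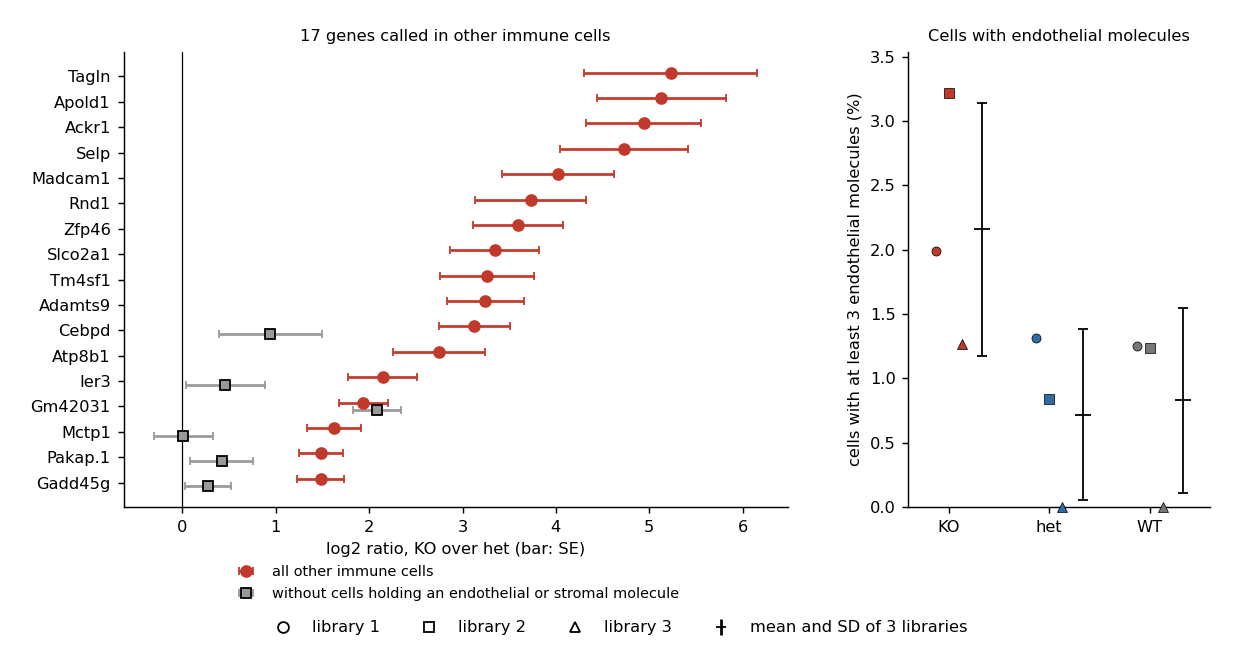
Left, log2 ratio of KO over het with its standard error for the 17 genes called in other cells, with all other cells and, for the 6 genes still tested, without cells that hold an endothelial, muscle or fibroblast molecule. Right, percent of other cells with at least 3 endothelial molecules, 1 point per library for KO, het and WT. Gm42031 is at 1.94 with all other cells and 2.08 without cells that hold any of the 15 genes, and Cebpd at 3.12 and 0.94.

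B cell, myeloid and innate lymphoid genes fixed by name did not pass the test in other cells. The log2 ratios were 0.24 for Cd79a and 0.06 for Ms4a1 (B cell receptor complex and CD20), 0.17 for Cd74 and 0.14 for H2-Ab1 (antigen presentation), -0.41 for C1qa and -0.15 for Lyz2 (macrophages), -0.04 for Il7r and 0.15 for Il22. Siglece and Siglecf held too few molecules to be tested, and of the 9 Siglec genes 4 were tested, with a median of 0.06. Of 16 B cell genes 14 had a ratio above 0 (median 0.08 against 0.00 over all genes, 0.00262), and of 11 MHC class II genes 9 had (median 0.17). Interferon-response genes had a ratio above 0 in 9 of 15 tested members (median 0.27), and 3 had KO sums that all lay above the het sums (6.31% of all tested genes did). Cytotoxic genes had a ratio above 0 in 4 of 15 tested members, with a median of -0.35 and 2 whose KO sums all lay below the het sums (5.76% of all tested genes did).

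The other cells were also divided by markers. B cells gave no call among 4280 genes (0%, 165 at an unadjusted p under 0.05). Myeloid cells, 129 in KO and 70 in het, gave 34 calls among 2900 (1.17%), of which 32 rose (1.1%) and 2 fell (0.069%). There Selp counted 212, 107 and 61 molecules in KO and 0, 0 and 0 in het, and Igfbp7, a vessel basement membrane gene, 94, 83 and 39 in KO and 0, 0 and 0 in het. Of the KO myeloid cells 9 held at least 3 endothelial molecules, against 0 of the 70 het myeloid cells, which allows a share of up to 4.29%. The genes that fell were Gzma, with 0, 0 and 0 molecules in KO and 92, 27 and 2 in het, and Morrbid. Morrbid, a long noncoding RNA that prolongs the life of short-lived myeloid cells, stood at 127, 218 and 185 CPM in KO. In het it stood at 363, 440 and 475 CPM (log2 ratio -1.30, adjusted p 0.0488). Cells with Il7r gave 1 call among 4255 (0.0235%), the fibroblast gene Dcn, with 72, 68 and 0 molecules in KO and 11, 0 and 0 in het. The part of vessel and connective tissue cells in the calls of the divided classes was not tested.

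**Figure D5:**
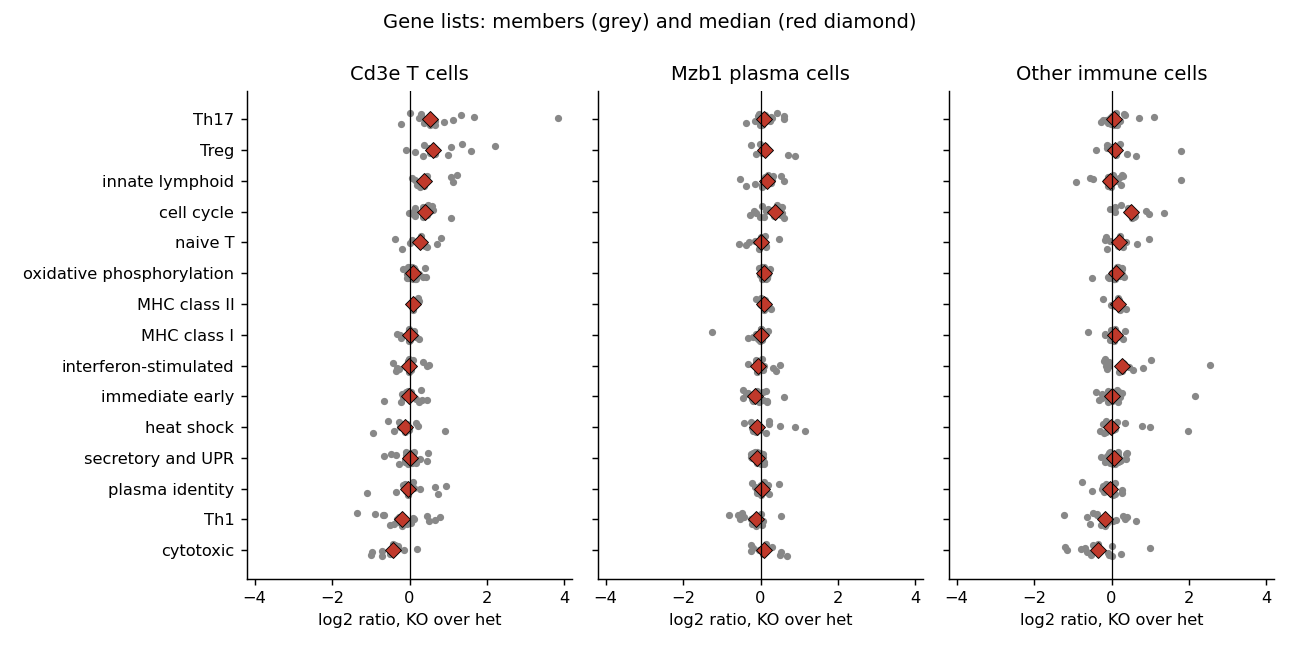
Log2 ratio of KO over het for the tested members of 15 gene lists (grey points) and their medians (red diamonds) in T cells, plasma cells and other cells. In T cells the medians were 0.53 for Th17 genes, 0.60 for regulatory T cell genes and -0.43 for cytotoxic genes, and in plasma cells -0.09 for secretory genes.

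Over all immune cells together no gene was called among 11943 (0%, 574 at an unadjusted p under 0.05 and 18 calls by DESeq2). A few transcripts of unknown function had the same order in several classes. 4833420G17Rik (chromosome 13, 119462015 to 119486120) stood at 20.4, 22.2 and 20.5 CPM in KO and 42.7, 42.3 and 43.6 CPM in het over all cells (log2 ratio -1.03, standard error 0.10, adjusted p 0.0827). The groups did not overlap, as for 5.35% of all tested genes below het and 4.71% above het. The WT sums over all cells stood at 23.5, 29.2 and 29.0 CPM, between the 2 groups and nearer to KO. The log2 ratio of KO over het was -1.30 in T cells, -0.74 in plasma cells and -1.13 in other cells. Gm42031 (chromosome 8, 85125923 to 85131814) stood at 89.3, 115 and 49.2 CPM in KO and 26.6, 32.96 and 24.1 CPM in het over all cells (log2 ratio 1.56, adjusted p 0.236). It was called in other cells, at 163, 239 and 67.0 CPM in KO and 49.4, 40.2 and 29.5 CPM in het (adjusted p 0.00855), and stood at 86.4, 108 and 57.0 CPM in KO and 30.9, 45.0 and 22.8 CPM in het plasma cells. Gm4316 (chromosome 8, 123172562 to 123178767) had a log2 ratio of 1.77 over all cells (adjusted p 0.173). Over all cells the WT sums stood at 19.8, 30.4 and 26.5 CPM for Gm42031 and at 9.51, 8.34 and 9.67 CPM for Gm4316.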

How the data were processed

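Per the labels' protocols, CD45-enriched cells of 3 tissues were hashtagged by genotype, combined by organ and captured with 10x 5′ chemistry. The deposited matrices hold UMI counts, of genes and of hashtags, for each cell barcode, without normalization. Other deposited values (unit: other) are names of genes, hashtags and barcodes. Per the submitters' processing notes the authors used Cell Ranger, Seurat and mm10, with versions not given in the sources used here.

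A barcode ending was read as the genotype whose hashtag had the highest median there, and endings 1 to 3, 4 to 6 and 7 to 9 as libraries 1 to 3. All KO, het and WT sums of a class entered 1 edgeR 4.0.16 fit (R 4.3.3, limma 3.58.1, TMM, filterByExpr, quasi-likelihood F test) with the library as a block, since the genotypes of a library shared a capture, and a Benjamini-Hochberg adjusted p under 0.05 was a call. Same-library deviations of KO and het sums correlated at 0.0971, 0.144 and 0.223 in T cells and at 0.0577, 0.137 and 0.224 in other cells. Replicate sums differed by more than counting noise, with a chi-square per degree of freedom of at least 1.97. Standard errors are the absolute log2 ratio over the square root of F. Each run had 1 KO and 1 het mouse, but the endings carry no run label. The ratio of a class against another was an F test with 2 degrees of freedom. Shares were compared with exact permutation tests. DESeq2 1.42.0 was an alternative. The code was tested on simulated data with 200 changed genes. In T, plasma and other cells, 49, 33 and 43% of log2 changes of 1 were called, and 90, 86 and 87% of log2 changes of 2. False calls were 15 of 154, 12 of 131 and 6 of 136, above the 5% aimed at in T and plasma cells. The test between classes called 19 and 81% of such changes in T cells, with 15 of 115 calls false. Sums ran in Python 3.11.15 (numpy 2.4.6, scipy 1.17.1, pandas 2.3.3) and figures in matplotlib 3.10.9. Intervals and limits (3 counts over the total) cover counting error only. Named genes were St8sia6, genes fixed by name, the called genes with the highest ratios, the 5 lowest p-values in each direction where under 5 were called, and list members. Il17f molecules per cell, the divided other cells and the genes named from them were chosen after their values were seen. The members and lists were chosen with earlier results of these data known. Some genes fixed by name are not reported here. Colon and epithelium were not analysed here.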

Additional observations from a re-analysis of the deposited data

Results flagged for a closer look

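A test of whether the KO against het ratio differed between T, plasma and other cells (edgeR quasi-likelihood F test, Benjamini-Hochberg adjustment over 9186 genes) called 8 genes (0.0871%), all of them genes of smooth muscle contraction. The adjusted p was 0.00012 for Myh11, 0.0019 for Myl9 and for Acta2, 0.00225 for Des, 0.0084 for Tagln and for Tpm2, 0.0329 for Cald1 and 0.0372 for Mylk. Myh11, the smooth muscle myosin heavy chain gene, had a log2 ratio of -7.50 in T cells, 0.06 in plasma cells and 8.74 in other cells, and the other 7 genes were likewise below 0 in T cells and above 0 in other cells.

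Most molecules of muscle genes in these sums were in 3 cells. Of the 684 molecules of muscle genes in the het T cells of library 2, 681 were in 1 cell. In other cells of KO, 228 of 329 molecules in library 2 and 573 of 638 in library 3 were in 1 cell each. Without cells that hold endothelial, muscle or fibroblast molecules the test called 0 genes, with 315 at an unadjusted p under 0.05. Leaving out library 2 gave 2 calls, none of them among the 8, and leaving out library 3 gave 3, of which 1 was among the 8.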

How the results depend on the processing

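Il17f in T cells stayed called in 17 of 19 alternatives, with log2 ratios of 1.82 to 4.16 and adjusted p of 4.1e-24 to 0.959. The library is the block. With no replicate block Il17f had a log2 ratio of 3.76 (adjusted p 0.00327), all cells gave 2 calls, other cells 0 and the class test 0. Calls in T cells (1) became 127 without the low-count filter, 6 without the WT sum of library 3, 3 at a hashtag share of at least 80%, 3 at 2000 UMI or more, 21 without stromal-molecule cells, and 0 with double-marker cells or in Cd4 or Cd8a cells alone. Calls in other cells (17) became 9 with DESeq2, 209 unfiltered, 45 with KO and het sums, 39 without that WT sum, 136 at the 80% share, 7 without the top 5% of cells by UMI, 27 without immunoglobulin genes, 0 under a stricter gate, 1 without stromal-molecule cells, and 0, 34 and 1 in B, myeloid and Il7r cells. The test between classes gave 0 without stromal-molecule cells. The median share of a cell's hashtag molecules that were its own was 78.29% in KO and 92.87% in het other cells. The 80% share kept 105, 94 and 257 of 301, 342 and 395 KO other cells. It kept 227, 230 and 165 of 228, 238 and 165 het other cells. Calls in plasma cells (0) became 11 with DESeq2, 23 unfiltered, 3 with KO and het sums, 1 at the 80% share, 1 without the top 5% and 2 without immunoglobulin genes, and in all cells (0) 18 with DESeq2, 21 unfiltered, 1 with KO and het sums, 1 without that WT sum and 3 without immunoglobulin genes. Leaving out each library gave 1 to 7 calls in T cells (7 without library 3), 2 to 58 in other cells (58 without library 1, 2 without library 2), 0 to 3 in plasma and in all cells, and 2 to 12 in the class test.

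At the 80% share, KO minus het was 4.59 points for T, -6.62 for plasma, -2.88 for other, -13.3 for B, 7.74 for Il7r, 4.91 for double-marker and 8.22 for myeloid cells (-2.96, 2.93, 2.32, 2.14, -2.35, -2.29 and 1.21 as reported), and at 2000 UMI -1.53 for B and 2.51 for Il7r cells. Leaving out a library gave -6.37 to 0.714 for T, -5.46 to 6.53 for B, -5.29 to 1.93 for Il7r and -1.06 to 3.51 for myeloid cells. The Cd4 and Cd8a shares kept their direction. Of 1480 alternatives of 84 named gene results, 57 reversed in 28. In T cells, Cd4 cells alone gave 0.31 for Ccl5, 0.079 for Ddx3y, 0.72 for Gzma, 1.62 for Gzmb, 0.11 for Itgae, -1.06 for Klf2 and -0.17 for Cd4, and Cd8a cells alone 0.35 for Ifng, 0.28 for Xcl1, 0.26 for Tbx21 and -0.026 for Ctla4. Double-marker cells gave -0.34 for St8sia6 and 0.29 for Ifng. Klf2 was -0.016 with DESeq2, -0.0071 unblocked, -0.071 at 2000 UMI and -0.022 under the stricter gate, and Xcl1 0.081 at the 80% share. In plasma cells that share gave 0.17 for Ddx3y, -0.020 for Jchain and -0.046 for Xbp1, and Igkc was 0.011 unfiltered and 0.0020 without the top 5%, where Gm10260 in all cells was 0.42. In other cells it gave -0.94 for St8sia6, 0.23 for C1qa, 0.59 for Lyz2, -1.12 for Cd79a and -1.63 for Ms4a1. B cells gave -0.18 for St8sia6, 0.65 for Lyz2 and 0.032 for Il7r, myeloid cells -0.075 for Cd74, -0.11 for H2-Ab1 and 0.35 for Il7r, Il7r cells 0.016 for Il7r, 2000 UMI -0.48 for Ms4a1 and 0.038 for Il7r, the stricter gate -0.75 for Il22, and no stromal-molecule cells 0.025 for Il7r. Leaving out a library gave, in T cells, -0.80 to 0.14 for Ifng, -0.0070 to 0.81 for Il22, -0.26 to 0.23 for Klf2 and -0.53 to 0.41 for Xcl1; in plasma cells, -0.11 to 0.020 for Ddx3y, -0.14 to 0.92 for Ighm, -0.060 to 0.0053 for Igkc, -0.0045 to 0.050 for Jchain and -0.024 to 0.049 for Xbp1; and in other cells, -0.063 to 0.42 for Cd74, -0.12 to 0.47 for Cd79a, -0.030 to 0.41 for H2-Ab1, -0.058 to 0.25 for Il22, -0.15 to 0.058 for Il7r, -0.33 to 0.11 for Lyz2, -0.37 to 0.37 for Ms4a1 and -0.41 to 0.96 for St8sia6. The causes were not tested. The alternatives with divided classes and without stromal-molecule cells were chosen after seeing the data, and class gates give no value for the sums over all cells. Low counts limit single genes, and the het T cell sums held 7, 7 and 0 Il17f molecules.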

Other observations

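No gene of the sialic acid pathway was called in any class. In other cells Npl, which encodes the lyase that breaks down free sialic acid, averaged 9.28 CPM in KO and 21.6 CPM in het, with all KO sums below all het sums, as for 5.76% of all genes tested there (log2 ratio -1.23, standard error 0.44, adjusted p 0.617). In T cells Cmas, which encodes the enzyme that activates sialic acid for transfer, averaged 79.3 CPM in KO and 61.6 CPM in het, with all KO sums above the het sums, as for 6.15% of all genes tested there (log2 ratio 0.37, adjusted p 0.921). Over all immune cells Siglece, an inhibitory receptor gene of myeloid cells, averaged 3.72 CPM in KO and 1.91 CPM in het, again above het without overlap, as for 4.71% of all genes tested over all cells (log2 ratio 0.98, standard error 0.33, adjusted p 0.983).

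In other cells Iigp1, an interferon-induced GTPase gene, stood at 60.7, 67.3 and 34.9 CPM in KO and 7.05, 7.45 and 16.1 CPM in het (log2 ratio 2.55, standard error 0.48, adjusted p 0.0583). Gbp2, another interferon-induced GTPase gene, had a log2 ratio of 1.03 (adjusted p 0.258), while Irf7 had -0.06 and Isg15 0.46. These genes were chosen after their values were seen.

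Gm10260, a predicted gene, counted 7, 18 and 6 molecules in KO, 11, 13 and 6 in het and 1162, 1918 and 6 in WT over all immune cells. The WT sum at 6 molecules is that of library 3, the ending where the WT hashtag led in 55.69% of all cells. The WT hashtag led in 46 of 46 T cells of that ending. In T cells Gm10260 counted 52, 166 and 1 molecules in WT.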
